A study of Homo sapiens with 12 samples.

Results

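The miScript miRNA PCR Array used in this study carries 384 wells, and 6 of them measure small RNAs that are not miRNAs. These are 5 C/D box snoRNAs (SNORD61, SNORD68, SNORD72, SNORD95 and SNORD96A) and the spliceosomal snRNA RNU6-2, called U6. They were taken as every well whose name contains SNORD or RNU6. RNA of OCI-My5 (My5) cells, a human multiple myeloma (MM) cell line, was measured on 12 arrays with 1 array per condition. My5.LV cells were infected with virus of the lentiviral cloning vector, whereas My5.CRBN cells received the cDNA of cereblon (CRBN), the protein that lenalidomide binds. Each cell line was un-treated, treated with AGO2-sh72 (an shRNA against AGO2, also named EIF2C2), treated with AGO2 cDNA, treated with 10 μM lenalidomide for 72 or 120 hours, or given AGO2 cDNA together with 72 hours of lenalidomide. Per the methods, both cell lines were infected with lentivirus and sorted for green fluorescent protein before any treatment. The AGO2-sh72 and AGO2 cDNA constructs were brought in by a further lentivirus and puromycin selection. The un-treated and lenalidomide arrays are not labelled as carrying such a construct, and an array of the empty shRNA or cDNA vector was not analysed here. The effect of a construct on AGO2 and the effect of the infection and selection therefore cannot be told apart. No array is labelled as given the solvent dimethyl sulfoxide alone or as a time-matched un-treated culture. The effects of lenalidomide, of a solvent and of time in culture cannot be told apart either. AGO2 and CRBN themselves are not among the assays, so the array gives no check of the knockdown or of the cDNA.

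C/D box snoRNAs guide the 2′-O-methylation of ribosomal RNA, a step that takes place in the nucleolus. In human cells most of them have no promoter of their own and are cut out of the introns of genes for ribosomal and related proteins, which RNA polymerase II transcribes. U6 works differently. It is transcribed by RNA polymerase III from genes with their own promoters, forms part of the catalytic core of the spliceosome, and is made from several near-identical gene copies, so an assay named RNU6-2 may read more than 1 of them. Both kinds of RNA are used as reference RNAs for miRNA levels because neither depends on Drosha, Dicer or AGO2 in the way a miRNA does.

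In the RefSeq table of GRCh38.p14 all 6 genes were found. SNORD95 (chromosome 5, 181243314 to 181243376) and SNORD96A (chromosome 5, 181241818 to 181241889) lie 1424 bases apart inside RACK1, which encodes a scaffold protein of the small ribosomal subunit. SNORD68 (chromosome 16, 89561430 to 89561501) lies inside RPL13 and SNORD72 (chromosome 5, 40832656 to 40832735) inside RPL37, and both of these host genes encode proteins of the large ribosomal subunit. SNORD61 (chromosome X, 136879199 to 136879271) lies inside RBMX, the gene of an RNA-binding protein. RNU6-2 (chromosome 19, 1021522 to 1021628) lies inside no protein-coding gene. The snoRNAs are from 63 to 80 bases long and RNU6-2 is 107 bases long.

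Each well has a threshold cycle (Ct) in the table of the authors, the PCR cycle at which its signal crosses the threshold. A Ct that is lower by 1 cycle stands for a level higher by 1 on the log2 scale, or 2 fold, if the PCR doubles its product in each cycle. Levels were compared across arrays and not between wells, since assays differ in efficiency. Each array also holds 2 wells for a control of reverse transcription (miRTC) and 2 wells for a positive PCR control (PPC), which carries its own template and needs no RNA from the cells. Raw Ct values moved by several cycles between arrays, and the control wells moved with them. The Ct of RNU6-2 ran from 16.99 in My5.LV cells with AGO2 cDNA and lenalidomide to 20.82 in AGO2 cDNA treated My5.CRBN cells. The mean Ct of the 5 snoRNA wells ran from 18.82 to 22.07, and that of the 2 miRTC wells from 21.65 to 24.84. Even the PPC wells, which hold no cellular RNA, ran from 17.56 to 20.32.

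After 120 hours of lenalidomide the mean Ct of the 6 small-RNA wells in My5.CRBN cells differed from the un-treated value by -2.09 cycles, and that of miRTC by -2.19 cycles. Against miRTC, the 6 wells together then differed by -0.10 on the log2 scale. Over the 12 arrays the SD of the mean of the 6 wells was 0.99 cycles as deposited and 0.14 cycles against miRTC. Levels below are given against miRTC, or as 1 small RNA against the others. The SD of 0.14 comes from these same wells, so small values against miRTC are no separate evidence that the wells are steady. The amount of RNA put into a reaction and the amount of RNA per cell cannot be told apart in such values. The 2 pairs of control wells did not keep a fixed distance, and which of them moved cannot be told apart. The SD of the Ct over the arrays was 0.95 for miRTC and 0.84 for PPC. The level of PPC against miRTC was 3.23 in My5.CRBN and 4.89 in My5.LV cells after 120 hours of lenalidomide and lay between 4.18 and 4.85 on the other 10 arrays.

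**Figure D1:**
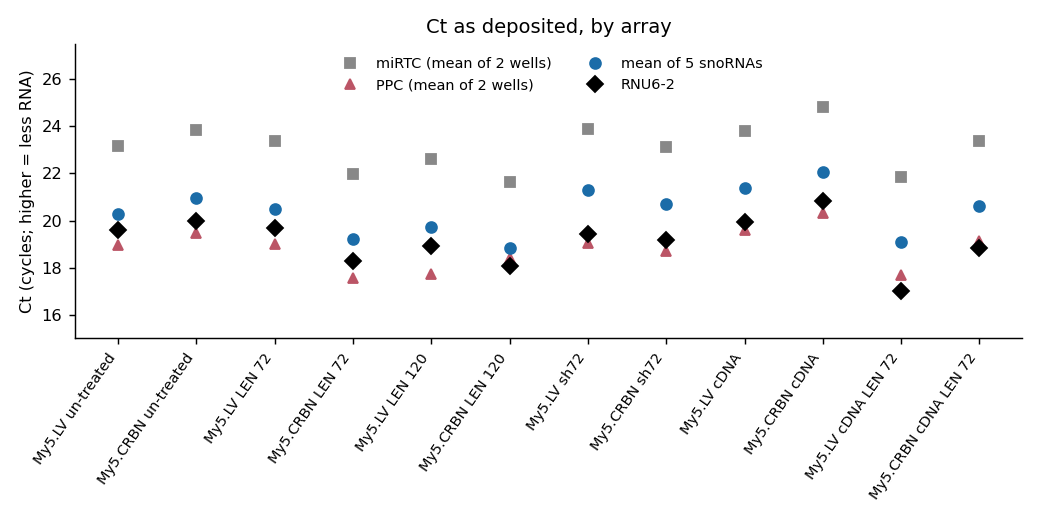
Ct as deposited (y axis, in cycles, a higher Ct standing for less RNA) on each of the 12 arrays (x axis; LEN, lenalidomide with its hours; cDNA, AGO2 cDNA) for RNU6-2, the mean of the 5 snoRNA wells, and the means of the 2 miRTC and 2 PPC wells. The wells go up and down together, with miRTC from 21.65 to 24.84 and the snoRNA mean from 18.82 to 22.07, while RNU6-2 lies further below the snoRNA mean on the arrays with AGO2-sh72 or AGO2 cDNA.

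RNU6-2 stood apart from the mean of the snoRNAs on the arrays with an AGO2 construct. The level of RNU6-2 above the mean of the 5 snoRNAs, in log2 units, was 0.68 in un-treated My5.LV and 0.98 in un-treated My5.CRBN cells. After 72 hours of lenalidomide it was 0.81 and 0.94, and after 120 hours 0.82 and 0.74, in the same order of cell lines. The 6 arrays without an AGO2 construct thus lay close together, with a mean of 0.83 ± 0.12 (SD, n = 6 arrays of 6 conditions). With AGO2-sh72 it was 1.86 (My5.LV) and 1.52 (My5.CRBN). With AGO2 cDNA it was 1.44 and 1.26, and with AGO2 cDNA and lenalidomide 2.08 and 1.80. All 6 arrays with a construct lay above all 6 without, with a mean of 1.66 ± 0.30 (SD, n = 6 arrays of 6 conditions) and a distance of 0.27 between the lowest of the first and the highest of the second. Against single snoRNAs the groups were apart only for SNORD61 (by 0.46) and SNORD68 (by 0.42). Against SNORD72, SNORD95 and SNORD96A they overlapped. This grouping was chosen after the values were seen and was not tested. How many miRNAs split the arrays in the same way was not counted, so the split is not shown to be particular to RNU6-2. For scale, duplicate miRTC wells put the technical SD of this value at 0.14 on 1 array, and duplicate PPC wells put it at 0.30.

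**Figure D2:**
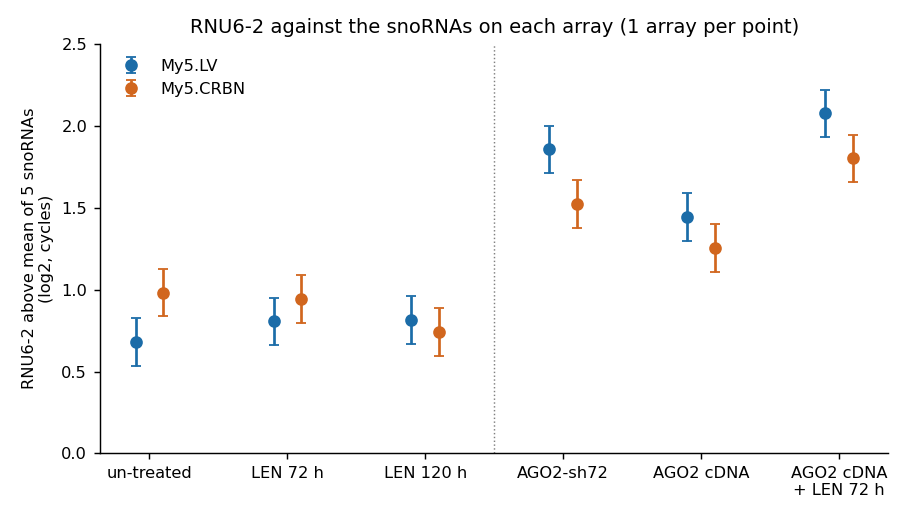
Level of RNU6-2 above the mean of the 5 snoRNAs (y axis, log2) under each treatment (x axis; LEN, lenalidomide), with 1 array per point and the cell lines in 2 colours. Error bars are the technical SD of 0.14 from duplicate miRTC wells, and the 6 arrays right of the dotted line, between 1.26 and 2.08, lie above the 6 left of it, between 0.68 and 0.98.

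The comparison of AGO2-sh72 treated with un-treated cells asks how the reference RNAs moved when AGO2 was targeted. In My5.LV cells RNU6-2 was 2.26 fold higher relative to the snoRNAs (log2 difference 1.18). It was higher against each of the 5, from 0.83 against SNORD72 to 1.31 against SNORD96A. As background, 340 miRNAs had a Ct under 35 on this pair of arrays, and 7.06% of them lay at least 2 fold higher against the same snoRNA mean. In My5.CRBN cells RNU6-2 was 1.46 fold higher (log2 difference 0.54), again against each of the 5 snoRNAs, from 0.31 against SNORD96A to 0.78 against SNORD72, with 8.16% of the miRNAs past the same line. The mean difference over the cell lines was 0.86 (SD 0.45, n = 2 pairs), with an exact sign-flip permutation test, two-sided, giving p = 0.5, the smallest p that 2 pairs allow. The technical SD of such a difference between 2 arrays was 0.20 from the miRTC wells and 0.42 from the PPC wells.

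With AGO2 cDNA in place of the shRNA, RNU6-2 again was higher relative to the snoRNAs. The difference from un-treated cells was 0.77 in My5.LV cells, with 17.3% of the miRNAs at least 2 fold higher. The difference in My5.CRBN cells was 0.27, with 6.85% of the miRNAs at least 2 fold higher. Compared with un-treated cells, RNU6-2 was here higher relative to 3 snoRNAs, but lower by 0.57 relative to SNORD95 and by 0.18 relative to SNORD96A. Between cells with 72 hours of lenalidomide, the difference made by AGO2 cDNA was 1.27 (My5.LV) and 0.86 (My5.CRBN). Over these 4 pairs, none of which share an array, RNU6-2 was higher in 4 of 4, by a mean of 0.79 (SD 0.41). The two-sided exact permutation test gave p = 0.12, the smallest that 4 pairs allow, so the design could not reach 0.05. Within a cell line, the comparisons of AGO2-sh72 and of AGO2 cDNA with un-treated cells share the un-treated array.

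Under lenalidomide alone RNU6-2 kept close to the mean of the snoRNAs. At 72 hours the difference from un-treated cells was 0.13 in My5.LV cells (4.03% of the miRNAs at least 2 fold higher) and -0.04 in My5.CRBN cells (21.6%). At 120 hours it was 0.14 in My5.LV cells (13.9%), compared with -0.24 in My5.CRBN cells (11.0%), with a mean of -0.05 (SD 0.27, n = 2 pairs, exact permutation p = 1). Single snoRNAs gave a wider spread. At 72 hours the difference against them ran from -0.21 to 0.31 (My5.LV) and from -0.39 to 0.26 (My5.CRBN). At 120 hours it ran from -0.27 (SNORD95) to 0.83 (SNORD72) in My5.LV cells. In My5.CRBN cells it then ran from -0.50 (SNORD61) to 0.06 (SNORD72). In cells that carried AGO2 cDNA, adding 72 hours of lenalidomide made a difference against the snoRNA mean of 0.63 (My5.LV) and 0.55 (My5.CRBN). The difference with lenalidomide was thus larger with AGO2 cDNA than without it by 0.50 (My5.LV) and 0.58 (My5.CRBN) (mean 0.54, SD 0.057, n = 2 cell lines, two-sided exact permutation p = 0.5, the smallest that 2 allow). Each of these 2 values rests on 4 single arrays. Its technical SD is therefore larger than that of a difference between 2 arrays, 0.20 from the miRTC wells and 0.42 from the PPC wells. The SD of 0.057 is the spread of 2 values and does not measure that error. Over all 4 pairs the mean effect of 72 hours was 0.32 (SD 0.32, exact permutation p = 0.25). Against un-treated cells, the combination of AGO2 cDNA and lenalidomide gave the highest ratio in each cell line. RNU6-2 was 2.63 fold higher in My5.LV (background of the miRNAs, 6.82%) and 1.76 fold higher in My5.CRBN cells (9.62%). In all, RNU6-2 relative to the snoRNA mean was at least 2 fold higher in 2 of the 10 comparisons with un-treated cells, both in My5.LV. Both use the un-treated My5.LV array, which had the lowest value of the 12 arrays, 0.68 against 0.98 for un-treated My5.CRBN.

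No steady difference between My5.CRBN and My5.LV cells was found. Over the 6 treatments the difference in RNU6-2 against the snoRNAs ran from -0.33 with AGO2-sh72 to 0.30 without treatment, with a mean of -0.07 (SD 0.25, n = 6 pairs, exact permutation p = 0.5, where 6 pairs could reach 0.03125). The mean of the 6 wells against miRTC differed by -0.02 (SD 0.19, n = 6 pairs, exact permutation p = 0.719). The 10 tests comprise RNU6-2 against the snoRNAs and the 6 wells against miRTC, each for AGO2 knockdown, AGO2 cDNA, 72 and 120 hours of lenalidomide and the cell lines. After Benjamini-Hochberg adjustment over the 10, each exact permutation p was 1. The labels do not say that the arrays come from separate cultures, so these p-values measure only the spread between the arrays, which may be technical.

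Measured against miRTC, the distance between RNU6-2 and the snoRNAs came from different sides in different conditions. In AGO2-sh72 treated My5.LV cells RNU6-2 was higher than in un-treated cells by 0.90 and the snoRNA mean differed by -0.27. In My5.CRBN cells the same treatment left RNU6-2 at 0.07, while the snoRNA mean differed by -0.47. With AGO2 cDNA alone, RNU6-2 differed by 0.32 and the snoRNA mean by -0.45 in My5.LV cells. In those 3 comparisons part or most of the distance lay in lower snoRNA values. With AGO2 cDNA and lenalidomide, in contrast, RNU6-2 was higher by 1.30 (My5.LV) and 0.69 (My5.CRBN), and the snoRNA mean stood at -0.09 and -0.13. Against PPC in place of miRTC, RNU6-2 in AGO2-sh72 treated My5.LV cells was higher by 0.26 and the snoRNA mean differed by -0.92, so this split depends on the reference. PPC itself was higher against miRTC on that array, at 4.85, than on the un-treated one, at 4.20, and its part in the split was not tested.

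**Figure D3:**
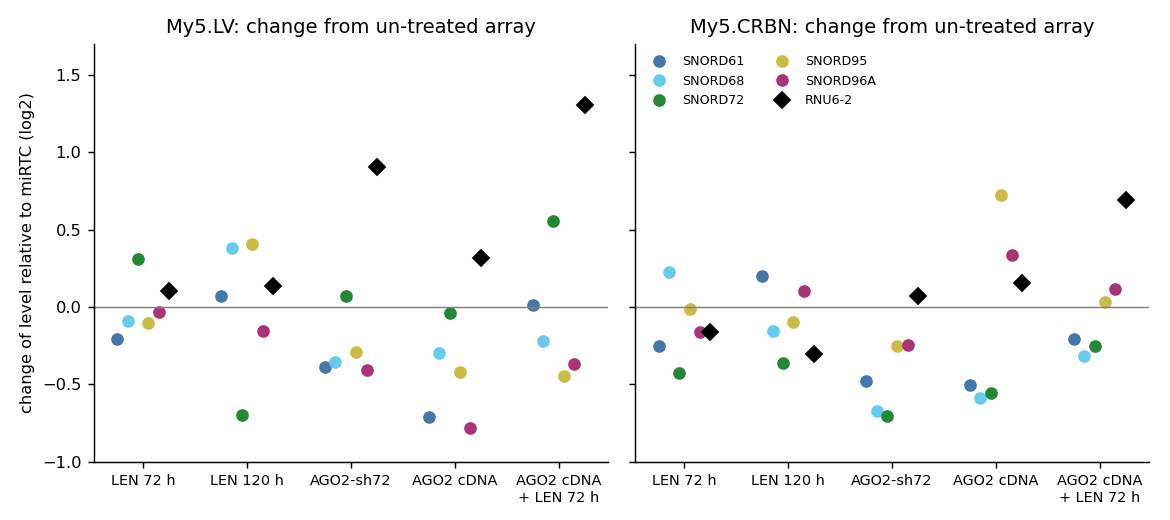
Change in the level of each of the 6 wells against miRTC (y axis, log2) from the un-treated array of the same cell line (x axis, treatments; LEN, lenalidomide), with My5.LV on the left and My5.CRBN on the right. RNU6-2 (black diamonds) reached 1.30 in My5.LV cells with AGO2 cDNA and lenalidomide, whereas the snoRNAs (circles) stayed between -0.78 and 0.73.

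Against miRTC the snoRNAs stayed within 2 fold. In the 10 comparisons with un-treated cells, 0 of the 50 snoRNA values were past 2 fold against miRTC in either direction, set against 27.9% of the miRNA values. They ran from -0.78 to 0.73, and 36 of the 50 were below 0. The share of miRNA values below 0 was not counted. The snoRNA values of a cell line share its un-treated array. That of My5.CRBN had the highest snoRNA mean against miRTC of the 12 arrays, at 2.89, so the signs rest in part on this array. The count past 2 fold depends on the reference. Against PPC, 7 of the 50 were past 2 fold, 3 higher and 4 lower, set against 9.71% of the miRNA values higher and 22.3% lower, and the snoRNA values ran from -1.39 to 1.34. The 7 were SNORD61, SNORD68 and SNORD96A on the low side with AGO2-sh72 in My5.LV cells, SNORD72 on the low side after 120 hours of lenalidomide in My5.LV cells, and SNORD61, SNORD95 and SNORD96A on the high side after 120 hours in My5.CRBN cells. The mean of all 6 wells against miRTC ran from 2.67 in AGO2-sh72 treated My5.CRBN cells to 3.14 in My5.LV cells with AGO2 cDNA and lenalidomide, with a median of 2.99. For AGO2-sh72 it differed from un-treated cells by -0.08 (My5.LV) and -0.38 (My5.CRBN), a mean of -0.23 (SD 0.21, n = 2 pairs, exact permutation p = 0.5). For AGO2 cDNA the mean difference was -0.03 (SD 0.22, n = 4 pairs, exact permutation p = 0.875). For 72 hours of lenalidomide it was 0.10 (SD 0.26, n = 4 pairs, exact permutation p = 0.75), and for 120 hours -0.04 (SD 0.09, n = 2 pairs, exact permutation p = 1).

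SNORD61, the RBMX-hosted snoRNA, ran from 2.35 to 3.25 above miRTC over the 12 arrays, with a median of 2.85. It was lowest with AGO2 cDNA in My5.LV cells and highest after 120 hours of lenalidomide in My5.CRBN cells. SNORD68, from RPL13, ran from 3.90 to 4.82 with a median of 4.30. Its lowest values, 3.90 and 3.98, were those of My5.CRBN cells with AGO2-sh72 and with AGO2 cDNA. Each of these 2 snoRNAs was lower against miRTC than in un-treated cells in both cell lines with AGO2-sh72 and in both with AGO2 cDNA alone, by 0.30 to 0.71 on the log2 scale. SNORD95 and SNORD96A were also lower in both with AGO2-sh72, and SNORD72 in both with AGO2 cDNA alone. Against the mean Ct of the miRNAs the sign turned with AGO2-sh72, but not with AGO2 cDNA alone. SNORD61 was then higher by 0.55 (My5.LV) and 0.45 (My5.CRBN), and SNORD68 by 0.59 and 0.26.

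SNORD72, from RPL37, ran from -0.30 to 0.95 with a median of 0.38. The lowest value belonged to My5.LV cells with 120 hours of lenalidomide, where its level against the mean of the other 4 snoRNAs was -3.98 and on the other 11 arrays -3.32 or higher. Without that array its SD against the other 4 fell from 0.43 to 0.31. Compared with un-treated cells, SNORD72 differed against miRTC after 120 hours by -0.70 in My5.LV cells and by -0.36 in the My5.CRBN cell line, where it stood at 0.31. Of the snoRNAs it kept closest to RNU6-2, with an SD of the Ct difference of 0.41 cycles over the 12 arrays.

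SNORD95 and SNORD96A, which share the host gene RACK1, also had the same highest array. SNORD95 ran from 3.01 to 4.05 above miRTC with a median of 3.31, and SNORD96A from 2.28 to 3.16 with a median of 2.87. The highest value of both was in AGO2 cDNA treated My5.CRBN cells. There SNORD95 was higher than in un-treated cells by 0.73 and SNORD96A by 0.33, whereas SNORD61, SNORD68 and SNORD72 differed by -0.50, -0.59 and -0.55. The value of SNORD95 against the other 4 snoRNAs, 1.60 on that array, had a median of 0.71 over the arrays. Its SD was 0.34 with the array and 0.23 without it. With AGO2 cDNA in My5.LV cells both lay below un-treated cells, SNORD95 by -0.42 and SNORD96A by -0.78, so their direction under AGO2 cDNA differed between the cell lines.

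Over the 15 pairs of wells, SNORD95 and SNORD96A kept the steadiest distance, with an SD of the Ct difference of 0.22 cycles over the 12 arrays. SNORD61 and SNORD68, which have different hosts, followed with 0.25 cycles. The 10 pairs of snoRNAs ran from 0.22 to 0.57 with a median of 0.39, and the widest was SNORD72 with SNORD95. The 5 pairs with RNU6-2 ran from 0.41 to 0.62 with a median of 0.54, so the ranges overlap. These SDs need no normalizer, but they share the 12 arrays and each well takes part in 5 pairs, and they are a description only.

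**Figure D4:**
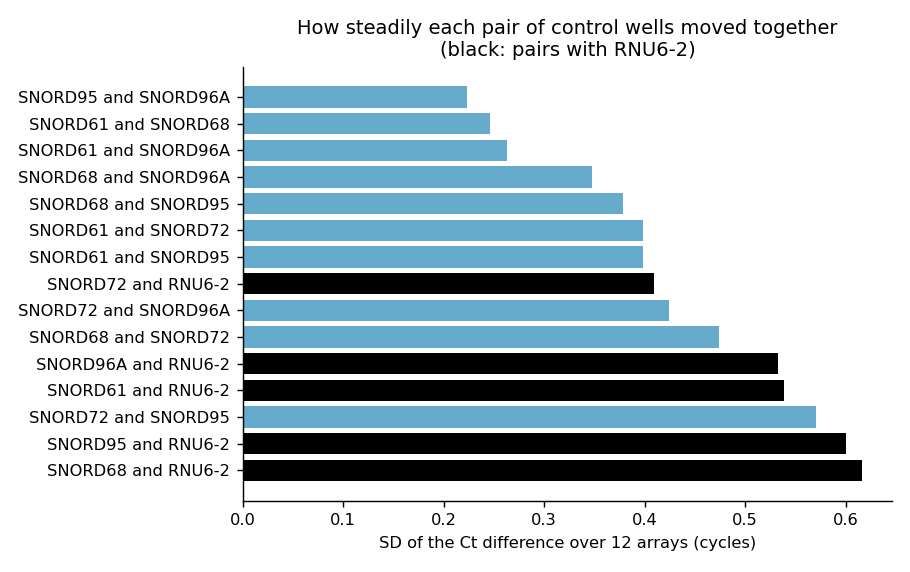
SD of the Ct difference between 2 control wells over the 12 arrays (x axis, in cycles) for each of the 15 pairs (y axis), with pairs that include RNU6-2 in black. SNORD95 and SNORD96A are the steadiest pair at 0.22 cycles, and RNU6-2 and SNORD68 the least steady at 0.62 cycles.

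Set among the miRNAs, the snoRNAs had small SDs and RNU6-2 an ordinary one. Against the mean Ct of the 314 miRNAs that stayed under Ct 35 throughout, the SD of SNORD68 over the arrays was 0.28 cycles, and 6 of the 314 miRNAs had a smaller one. The SDs of SNORD61, SNORD96A, SNORD72 and SNORD95 were 0.37, 0.39, 0.42 and 0.44, with 18, 22, 27 and 36 miRNAs below them. That of RNU6-2 was 0.60, and 135 miRNAs (43.0%) had a smaller SD. The median miRNA had an SD of 0.63, in a range from 0.19 to 2.12. The miRNAs are part of the mean they are set against, and the control wells are not. The control wells were also detected earlier. The mean Ct over the arrays was 20.39 for the snoRNA mean, 19.14 for RNU6-2 and 26.67 for these miRNAs. The part of late detection in the SDs of the miRNAs was not tested.

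**Figure D5:**
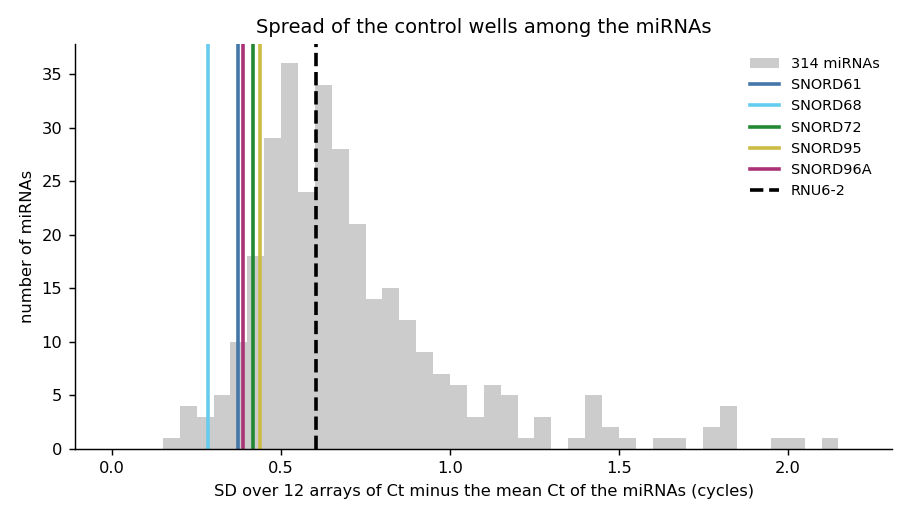
Number of miRNAs (y axis) by the SD over 12 arrays of their Ct minus the mean Ct of the miRNAs (x axis, in cycles), with a line for each control well. The 5 snoRNAs lie at the left edge, from 0.28 to 0.44, and RNU6-2 at 0.60 lies beside the median miRNA at 0.63.

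The miRNAs whose Ct kept the steadiest distance to these RNAs were different for the 2 kinds. They are shown with their RefSeq mature sequences, 5′ to 3′ and with the seed, bases 2 to 8, in capitals, so that the assays can be identified. For RNU6-2 they were miR-25-5p, miR-193b-5p and miR-302b-5p.
miR-25-5p (chromosome 7, 100093610 to 100093630, minus strand): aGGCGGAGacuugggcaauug
miR-193b-5p (chromosome 16, 14303980 to 14304001, plus strand): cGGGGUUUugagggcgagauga
miR-302b-5p (chromosome 4, 112648526 to 112648547, minus strand): aCUUUAACauggaagugcuuuc
For the mean of the 5 snoRNAs they were miR-197-3p, miR-423-3p and miR-154-5p.
miR-197-3p (chromosome 1, 109598940 to 109598961, plus strand): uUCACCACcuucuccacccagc
miR-423-3p (chromosome 17, 30117131 to 30117153, plus strand): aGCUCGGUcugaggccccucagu
miR-154-5p (chromosome 14, 101059769 to 101059790, plus strand): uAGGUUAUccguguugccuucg

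No seed is shared among these 6. The SD of the Ct difference between miR-25-5p and RNU6-2 over the 12 arrays was 0.27 cycles, against 0.64 cycles for the same miRNA and the snoRNA mean. It was detected late, with a Ct from 27.7 to 31.8. miR-193b-5p and miR-302b-5p followed with 0.43 and 0.47 cycles. The closest to the snoRNA mean was miR-197-3p, with 0.17 cycles, against 0.58 cycles to RNU6-2. miR-423-3p and miR-154-5p had SDs of 0.22 and 0.25. Over all 314 miRNAs the median SD was 0.91 cycles to RNU6-2 and 0.70 cycles to the snoRNA mean. The closest miRNAs were picked from 314 for this likeness, with the 12 arrays in common, so small SDs among them are no result in themselves.

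The choice between the 2 kinds of reference RNA moved the miRNA counts. Over the 10 comparisons with un-treated cells, 10.1% of the miRNA values were at least 3 fold higher or lower with the snoRNA mean as normalizer and 19.6% with RNU6-2. The call differed in 452 of 3431 values. With AGO2-sh72 in My5.LV cells, the snoRNAs as normalizer gave 59 miRNAs at least 3 fold lower and 8 higher, and RNU6-2 gave 193 lower and 1 higher. In My5.CRBN cells with AGO2-sh72 the counts went from 35 lower and 8 higher to 100 lower and 2 higher. The median log2 difference of the miRNAs was below 0 with both normalizers in these 2 comparisons, at -0.66 and -1.84 in My5.LV and at -0.53 and -1.07 in My5.CRBN cells.

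With AGO2 cDNA the choice turned the balance of higher and lower calls in 2 of the 4 comparisons with un-treated cells. For AGO2 cDNA in My5.LV cells the snoRNAs gave 20 miRNAs at least 3 fold higher and 3 lower, but RNU6-2 gave 5 higher and 19 lower. With AGO2 cDNA and lenalidomide in My5.LV cells the counts were 9 higher and 11 lower against the snoRNAs, and 2 higher and 126 lower against RNU6-2. In My5.CRBN cells with the same treatment they were 14 higher and 2 lower against 4 higher and 27 lower. With AGO2 cDNA alone in these cells the lower calls led under both normalizers, with 6 higher and 21 lower against the snoRNAs, and 2 higher and 27 lower against RNU6-2. For 72 hours of lenalidomide alone the call differed for 3 miRNAs in each cell line. These counts follow from the shift of RNU6-2 against the snoRNAs and are no further evidence of it.

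Of the small RNAs listed as miRNAs although they come from snoRNA, tRNA or vault RNA genes, the array holds 1 of the 15 searched for. This is miR-720, a fragment of a tRNA and so, like U6, a product of RNA polymerase III. Against the snoRNA mean, miR-720 differed from un-treated cells by 0.85 with AGO2-sh72 in My5.LV cells and by -1.57 in My5.CRBN cells, where RNU6-2 differed by 1.18 and 0.54. With AGO2 cDNA alone it differed by 0.30 and -1.73, where RNU6-2 differed by 0.77 and 0.27, and with AGO2 cDNA and lenalidomide by 0.58 and -0.83, where RNU6-2 differed by 1.40 and 0.82. After 72 hours of lenalidomide alone miR-720 differed by 0.19 and -0.44, where RNU6-2 differed by 0.13 and -0.04. After 120 hours of lenalidomide it differed by -3.76 and -5.85, where RNU6-2 differed by 0.14 and -0.24. In My5.LV cells both RNAs were thus above un-treated cells in 4 of the 5 comparisons, and in My5.CRBN cells miR-720 was below in all 5. These comparisons share the un-treated array of the cell line. Un-treated My5.CRBN had the highest miR-720 level against the snoRNA mean of the 12 arrays, 4.58 with a median of 3.59. All 5 values below it therefore rest on that array.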

How the data were processed

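Per the methods, total RNA went through reverse transcription (miScript II RT kit) and SYBR Green PCR on 12 miScript arrays. The deposited table by the authors gives another measure, the Ct of 384 wells per array, with no normalization and with from 1 to 5 undetermined wells. The instrument was an Applied Biosystems real-time PCR system, and its threshold and baseline settings are not given in the sources used here. A further table holds fold changes the authors made, of the other arrays relative to un-treated My5.LV, and was not used. Arrays have no sequencing depth. Their number limits the precision, and from 324 to 367 of the 372 miRNAs per array had a Ct under 35.

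RNU6-2 against the snoRNAs is the mean Ct of the 5 snoRNA wells minus the Ct of RNU6-2. Levels against miRTC or PPC are the mean Ct of those 2 wells minus the Ct of the well, so positive values are higher levels, and efficiency is assumed equal in all wells. Treatments were compared within matched pairs of arrays by a two-sided exact permutation test that flips the sign of each pair, with Benjamini-Hochberg adjustment over 10 tests. Conditions have 1 array, so single comparisons have no test and are set against the RMS difference of duplicate wells (0.187 cycles for miRTC, 0.383 for PPC), converted to an SD. The 2 wells of the spike-in cel-miR-39-3p, with Ct values from 31.5 to 38.8 and at least 1 well at or over Ct 35 on 5 arrays, differed by a median of 1.69 cycles (0.62 to 4.84). They were left out of this measure because the small-RNA controls were detected far earlier. miRNA counts used miRNAs under Ct 35 on both arrays and a fold of 3, or of 2 beside the members. The named miRNAs are the 3 with the smallest SD of Ct difference to RNU6-2, the 3 to the snoRNA mean, and the members of a list of 15 fragments of other small RNAs. The members and lists were chosen with earlier results of these data known. The calculations were tested on simulated data and used SciPy 1.17.1, pandas 2.3.3, Matplotlib 3.10.9 and NumPy 2.4.6 under Python 3.11.15. Alternatives were other references, other summaries of the snoRNA wells, another Ct cap, other folds and each pair left out.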

Additional observations from a re-analysis of the deposited data

Results flagged for a closer look

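Effects with opposite signs in every pair of 2 sets of arrays are listed here. Each set holds 2 pairs of arrays, and the share of miRNAs that meet the same rule was not counted. Several of the values are smaller than the technical SD of 1 well given below, so their signs are not secure. The first difference, taken within each of the 2 cell lines, gave an exact permutation p = 0.5, the smallest possible, and the differences of single snoRNAs were not tested. The mean of the 6 wells against miRTC differed by -0.13 and -0.003 after 72 hours of lenalidomide without AGO2 cDNA. With AGO2 cDNA it differed by 0.08 and 0.46, so the mean effects were 0.34 apart. Seen as an effect of AGO2 cDNA, the same 4 conditions gave -0.32 and -0.07 without lenalidomide and 0.14 in both cell lines with it, again 0.34 apart. SNORD61 against miRTC differed by -0.25 and -0.21 after 72 hours of lenalidomide without AGO2 cDNA and by 0.30 and 0.72 with it (0.74 apart). As an effect of AGO2 cDNA, SNORD61 differed by -0.71 and -0.50 without lenalidomide and by 0.05 and 0.22 with it, also 0.74 apart. It differed by 0.07 and 0.20 after 120 hours of lenalidomide, 0.36 above the effect at 72 hours. Against PPC the signs were not opposite in My5.LV cells, with -0.35 at 72 and -0.62 at 120 hours. In My5.CRBN cells they were, with -0.31 and 1.34. Against the mean Ct of the miRNAs they were opposite in both cell lines. The values that follow are again against miRTC. SNORD72 differed by -0.55 and -0.04 with AGO2 cDNA alone and by 0.18 and 0.25 with AGO2 cDNA under lenalidomide (0.51 apart). The RACK1-hosted snoRNAs moved in opposite directions in the 2 cell lines with AGO2 cDNA. SNORD95 differed by -0.42 and -0.35 in My5.LV and by 0.05 and 0.73 in My5.CRBN cells (0.77 apart), and SNORD96A by -0.78 and -0.33 in My5.LV and by 0.27 and 0.33 in My5.CRBN cells (0.86 apart). The technical SD of 1 well is 0.13 from the miRTC wells and 0.27 from the PPC wells. The differences listed here combine several wells and arrays, so their technical SD is larger than that of 1 well.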

How the results depend on the processing

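Over the 86 alternatives of the 10 tested results, 0 passed 0.05, and the smallest exact permutation p was 0.12. RNU6-2 against the snoRNAs kept its sign with the median of the snoRNA wells and without each snoRNA, from 0.82 to 0.92 for AGO2-sh72, from 0.73 to 0.83 for AGO2 cDNA, from 0.25 to 0.35 for 72 hours and from -0.20 to -0.01 for 120 hours of lenalidomide, and from -0.16 to -0.05 between the cell lines. Leaving out each pair, it ran from 0.54 to 1.18, from 0.63 to 0.96, from 0.21 to 0.43, from -0.24 to 0.14 and from -0.15 to -0.02, in the same order. The small differences of the 6 wells against miRTC did not keep their sign. They were 0.70 for AGO2-sh72, 0.13 for AGO2 cDNA, -0.025 for 72 hours and 0.23 for 120 hours of lenalidomide against the mean Ct of the miRNAs. They were 0.019 for AGO2 cDNA, 0.18 for 120 hours and 0.23 between the cell lines against PPC, and 1.32 for 120 hours with no reference. Leaving out each pair, they ran from -0.38 to -0.08 for AGO2-sh72, from -0.084 to 0.072 for AGO2 cDNA, from -0.017 to 0.18 for 72 hours, from -0.10 to 0.025 for 120 hours and from -0.084 to 0.026 between the cell lines. The cause was not tested.

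The 452 miRNA calls that differed between the normalizers became 818 at 2 fold. They became 362 with a Ct cap of 32 and 293 under Ct 30 on both arrays. Fewer miRNA values were tested under these 2 limits, so the lower counts do not show a smaller share. The count of snoRNA values past 2 fold, 0 of 50 against miRTC, was 7 against PPC and 2 against the mean Ct of the miRNAs, both chosen after seeing the data. The SD of SNORD96A was 0.22 against the other 5 wells and 0.39 against the miRNAs. The difference of 0.83 between arrays with and without an AGO2 construct, with alternatives chosen after seeing the data, was 0.61 with miRTC and 0.45 with PPC in place of the snoRNAs. Against miRTC the 2 groups of arrays were only 0.01 apart at their nearest values, and against PPC they overlapped. Leaving out each array it ran from 0.75 to 0.91. Each RNA has 1 well per array, which limits the precision.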
